A study of Mus musculus with 4 samples.

Results

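The 6 genes Cdk5rap1, Camk2b, Gipc1, Ell2, Atp8b2 and Lars2 were followed through every cell lineage of 4 mouse liver libraries, to see whether a difference between the libraries labelled Mef2d KO and Mef2d WT lay in all lineages or in some. They are 6 of the 31053 genes counted in the files. They were chosen by their KO over WT ratios of UMI counts, which looked alike at both stages in these same libraries, so those ratios are given as a description. Single-cell RNA libraries came from early hepatocellular carcinoma (eHCC) and from premalignant liver, with 1 KO library and 1 WT library at each stage. All 4 came from liver tissue digested with a commercial kit, and the labels name the 10x Genomics 5' kit for the libraries. The strain, age and sex of the mice, the allele deleted, the cells that lost it, how tumours were induced and how many animals were pooled are stated by none of the sources used here. In the cells used, Xist had 1 to 4 UMIs in a library and the Y-linked Ddx3y 6120 to 8500, the counts of male mice in all 4. With 1 library in each group no test between groups was possible, and each 95% interval covers the counting of molecules only, not the difference between animals or preparations.

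The 6 genes belong to different processes. Cdk5rap1 encodes a mitochondrial enzyme that adds a methylthio group to tRNA, and Lars2 encodes the mitochondrial leucyl-tRNA synthetase, so both serve mitochondrial translation. Camk2b is the beta subunit of calcium/calmodulin-dependent protein kinase II, best known from neurons. Gipc1 is a PDZ adaptor that couples membrane receptors to the motor myosin VI. Ell2 is an elongation factor of RNA polymerase II within the super elongation complex and is known in plasma cells for its part in making secreted immunoglobulin. Atp8b2 is the catalytic subunit of a P4-ATPase, a pump that moves phospholipids to the cytosolic side of a membrane. Mef2d itself is a transcription factor that binds an A/T-rich element.

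In all, 8338 KO and 9451 WT cells of eHCC and 8778 KO and 12215 WT cells of premalignant liver were kept, with median totals of 7180, 8155, 4273.5 and 4565 unique molecules (UMIs). Levels are CPM, the UMIs of a gene summed over the cells and scaled to the summed total of those cells. Of the 53 clusters, 45 were named as 1 of 16 classes from marker genes, and a class with at least 100 cells in both libraries of a stage is called a large lineage. There were 5 at eHCC (B-like, NK-like, phagocyte-like, T-like and cDC-like) and 6 at the premalignant stage (B-like, LSEC-like for liver sinusoidal endothelium, NK-like, phagocyte-like, T-like and pDC-like). Libraries shared 27 to 46 cell barcodes in pairs, at most 0.476% of the smaller library.

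Some features of the libraries bear on every ratio. Mef2d levels in CPM were above those of WT in both KO libraries. The gene stood at 95.5 CPM in KO and 60.9 CPM in WT at eHCC (log2 0.65, 95% interval 0.60 to 0.70) and at 100.1 CPM in KO and 71.3 CPM in WT at the premalignant stage (log2 0.49, 0.43 to 0.55), and it was above WT in 5 of 5 and in 6 of 6 large lineages. Counts can fall outside a deleted part, so this neither checks nor contradicts the labels, and every direction below is that of the library labelled KO against the library labelled WT. At eHCC the same lineage was filled by different clusters: T-like cells by a Pdcd1-led cluster (1996 KO and 72 WT cells) against a Gzmk-led one (33 and 1338), phagocyte-like cells by a Ms4a4c-led cluster (695 and 176) against a Fcrls-led one (6 and 1627), and NK-like cells by a Klra4-led cluster (438 and 64) against a Ncr1-led one (6 and 278). A further 705 KO and 819 WT eHCC cells in 2 clusters that express T cell genes, both with Ly6c2 among their leading genes, were left outside the T-like class (8.46% and 8.67% of kept cells). RNA of 14 hepatocyte genes was lower in KO in every eHCC lineage (median log2 ratio, where measured, -4.37 to -1.66) and ran from -0.92 to 0.10 across premalignant lineages. Haemoglobin and related transcripts were higher in KO at eHCC (2.99 to 5.62) and lower at the premalignant stage (-6.82 to -0.39). How much of this RNA was free was not measured, and Apoe, 1 of the 14, is also a leading gene of the Fcrls-led cluster. The part of these transcripts in the results below was not tested.

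Over all kept cells, 1 of the 6 genes was lower and 1 was higher in KO by at least 1.5-fold at eHCC, where 27.4% and 16.1% of all measured genes were. In premalignant liver 3 were lower and 2 higher, against 6.32% and 17.4% of all genes. Past 1.5-fold in 1 direction at both stages were 2 of the 6, Gipc1 on the lower side, where 3.02% of genes stood, and Atp8b2 on the higher side, where 5% stood. The median gene had a log2 ratio of -0.10 at eHCC and 0.06 at the premalignant stage. Lineage by lineage the picture separated the 6 genes: Cdk5rap1 was lower in KO in each of the 10 comparisons of a lineage at a stage that had at least 20 UMIs, Camk2b was lower in each of its 6 and Lars2 was higher in each of its 11. Gipc1, with 10 of 11 comparisons below 0, Atp8b2, with 10 of 11 above 0, and Ell2, with 9 of 11 above 0, each had a lineage on the other side. A shift of at least 1.5-fold in all lineages of both stages was not found for any of the 6.

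**Figure D1:**
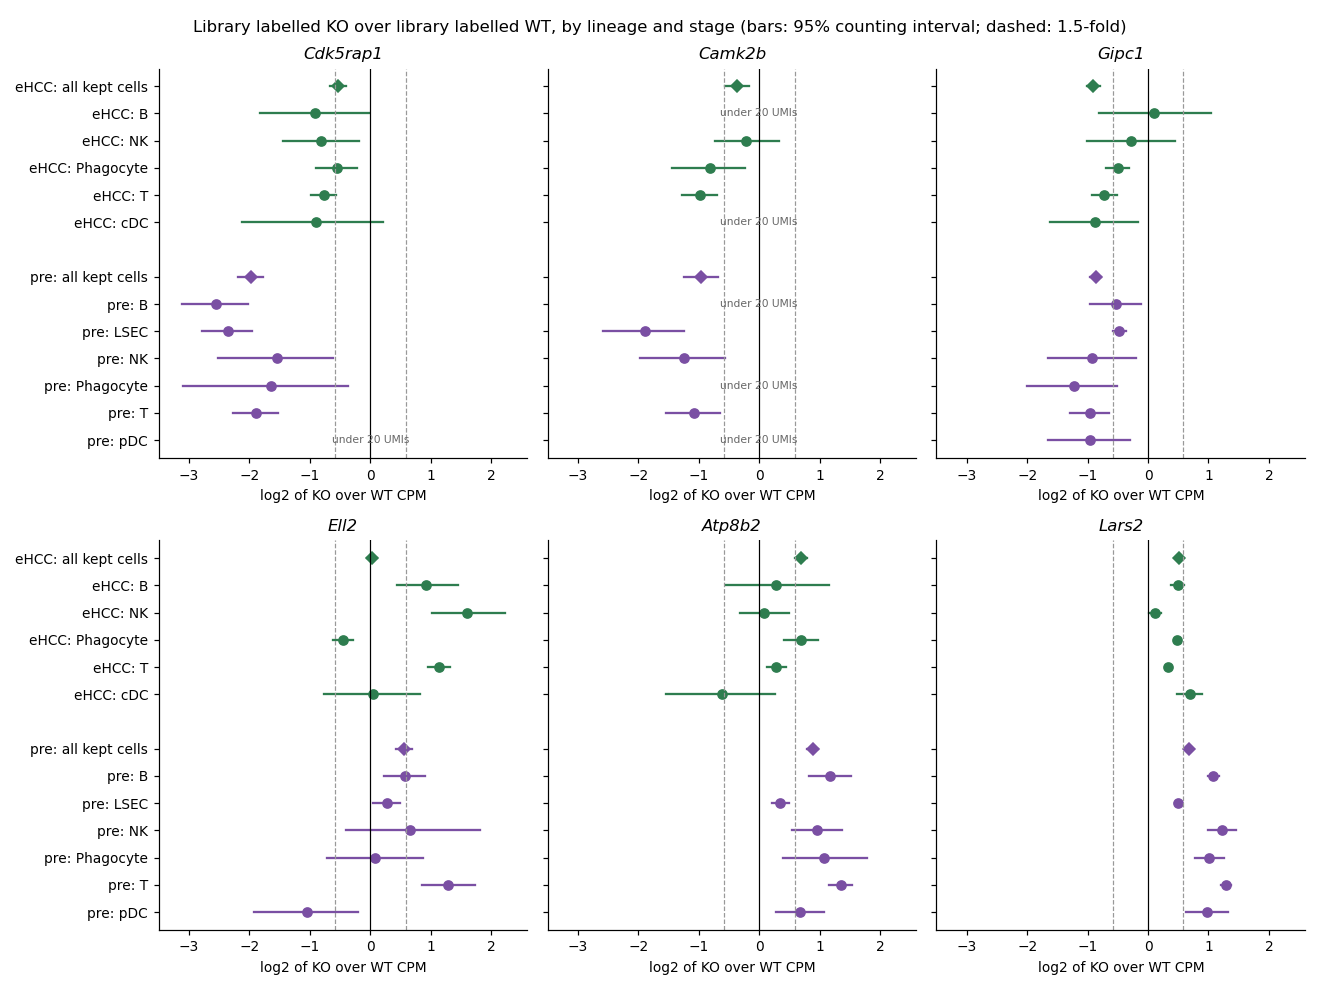
Log2 ratio of CPM in the library labelled KO over that labelled WT for each gene, over all kept cells (diamonds) and in each large lineage (circles), eHCC in the upper block and premalignant liver (pre) below. Bars are 95% counting intervals and dashed lines mark 1.5-fold; every Cdk5rap1 point lies left of 0 and every Lars2 point right of it, while Ell2 points lie on both sides.

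The background of calls in the lineages was as follows, and nothing is read from the members' counts against it since the ratios chose them. At eHCC the share of genes at least 1.5-fold lower in KO was 18.3% in B-like, 20.3% in NK-like, 22.1% in phagocyte-like, 21.6% in T-like and 17.4% in cDC-like cells, and the share higher was 7.9%, 10.1%, 14.8%, 7.79% and 9.48% in the same order. In premalignant cells the share lower was 7.17% in B-like, 4.59% in LSEC-like, 7.43% in NK-like, 8.92% in phagocyte-like, 5.7% in T-like and 6.65% in pDC-like cells, and the share higher was 14.6%, 6.41%, 15%, 10.7%, 12.4% and 12.5%.

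Cdk5rap1 was lower in the KO library in every lineage that could be counted, by less at eHCC than at the premalignant stage. In eHCC 670 KO UMIs (8.93 CPM) stood against 1292 WT UMIs (12.9 CPM), log2 -0.53 (-0.67 to -0.40), and 4537 of 15768 measured genes had a lower ratio. In premalignant cells 229 KO UMIs (4.89 CPM) stood against 1431 WT UMIs (19.3 CPM), a 3.95-fold lower level (log2 -1.98, -2.19 to -1.78), and 91 of 16004 genes had a lower ratio. The gene stood well inside the distribution of ratios at eHCC and near its lower edge at the premalignant stage, a description only, since these ratios chose it.

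By lineage at eHCC, Cdk5rap1 reached 11.5 CPM in KO and 20.3 CPM in WT NK-like cells (log2 -0.81), 11.02 CPM and 18.8 CPM in T-like cells (-0.77, -0.98 to -0.56), and 7.47 CPM and 14.1 CPM in B-like cells (-0.92). In phagocyte-like cells it was 6.78 CPM in KO and 9.92 CPM in WT (-0.55, -0.90 to -0.22), and in cDC-like cells 6.95 CPM and 13.0 CPM, with an interval that holds 0 (-2.12 to 0.21). At the premalignant stage it was 4.89 CPM in KO and 28.6 CPM in WT B-like cells (-2.55, -3.11 to -2.02), 3.36 CPM and 17.3 CPM in LSEC-like cells (-2.36, -2.79 to -1.96) and 7.12 CPM and 26.5 CPM in T-like cells (-1.90, -2.28 to -1.53). NK-like cells had 16 KO and 30 WT UMIs (log2 -1.54), phagocyte-like cells 7 and 23 UMIs (4.60 and 14.3 CPM, -1.64), and pDC-like cells, under the UMI minimum, 3 and 11. The 2 highest lineages had overlapping intervals in all 4 libraries, B-like and T-like cells in the WT premalignant library (28.6 and 26.5 CPM) and NK-like and T-like cells in the other 3, so no lineage stood alone as the highest.

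Inside clusters Cdk5rap1 was lower in KO as well, though not every interval excludes 0. All 7 eHCC clusters with at least 100 cells per library and 20 UMIs of the gene had a lower KO level (log2 -1.58 to -0.40, 5 past 1.5-fold), as did all 13 premalignant clusters (-3.80 to -1.12). At eHCC the intervals exclude 0 only in the Tnfsf8-led, Hist1h1b-led and Klra9-led T-like clusters. At the premalignant stage only that of the Gm26870-led LSEC-like cluster holds 0. The extreme was an Efnb1-led cluster of LSEC-like cells, with 2 UMIs among 259 cells of KO and 135 among 799 of WT. Between stages the libraries went opposite ways: eHCC over premalignant was 8.93 against 4.89 CPM in KO (log2 0.87, 0.65 to 1.09) and 12.9 against 19.3 CPM in WT (-0.58, -0.69 to -0.47). Stage and library cannot be told apart.

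**Figure D2:**
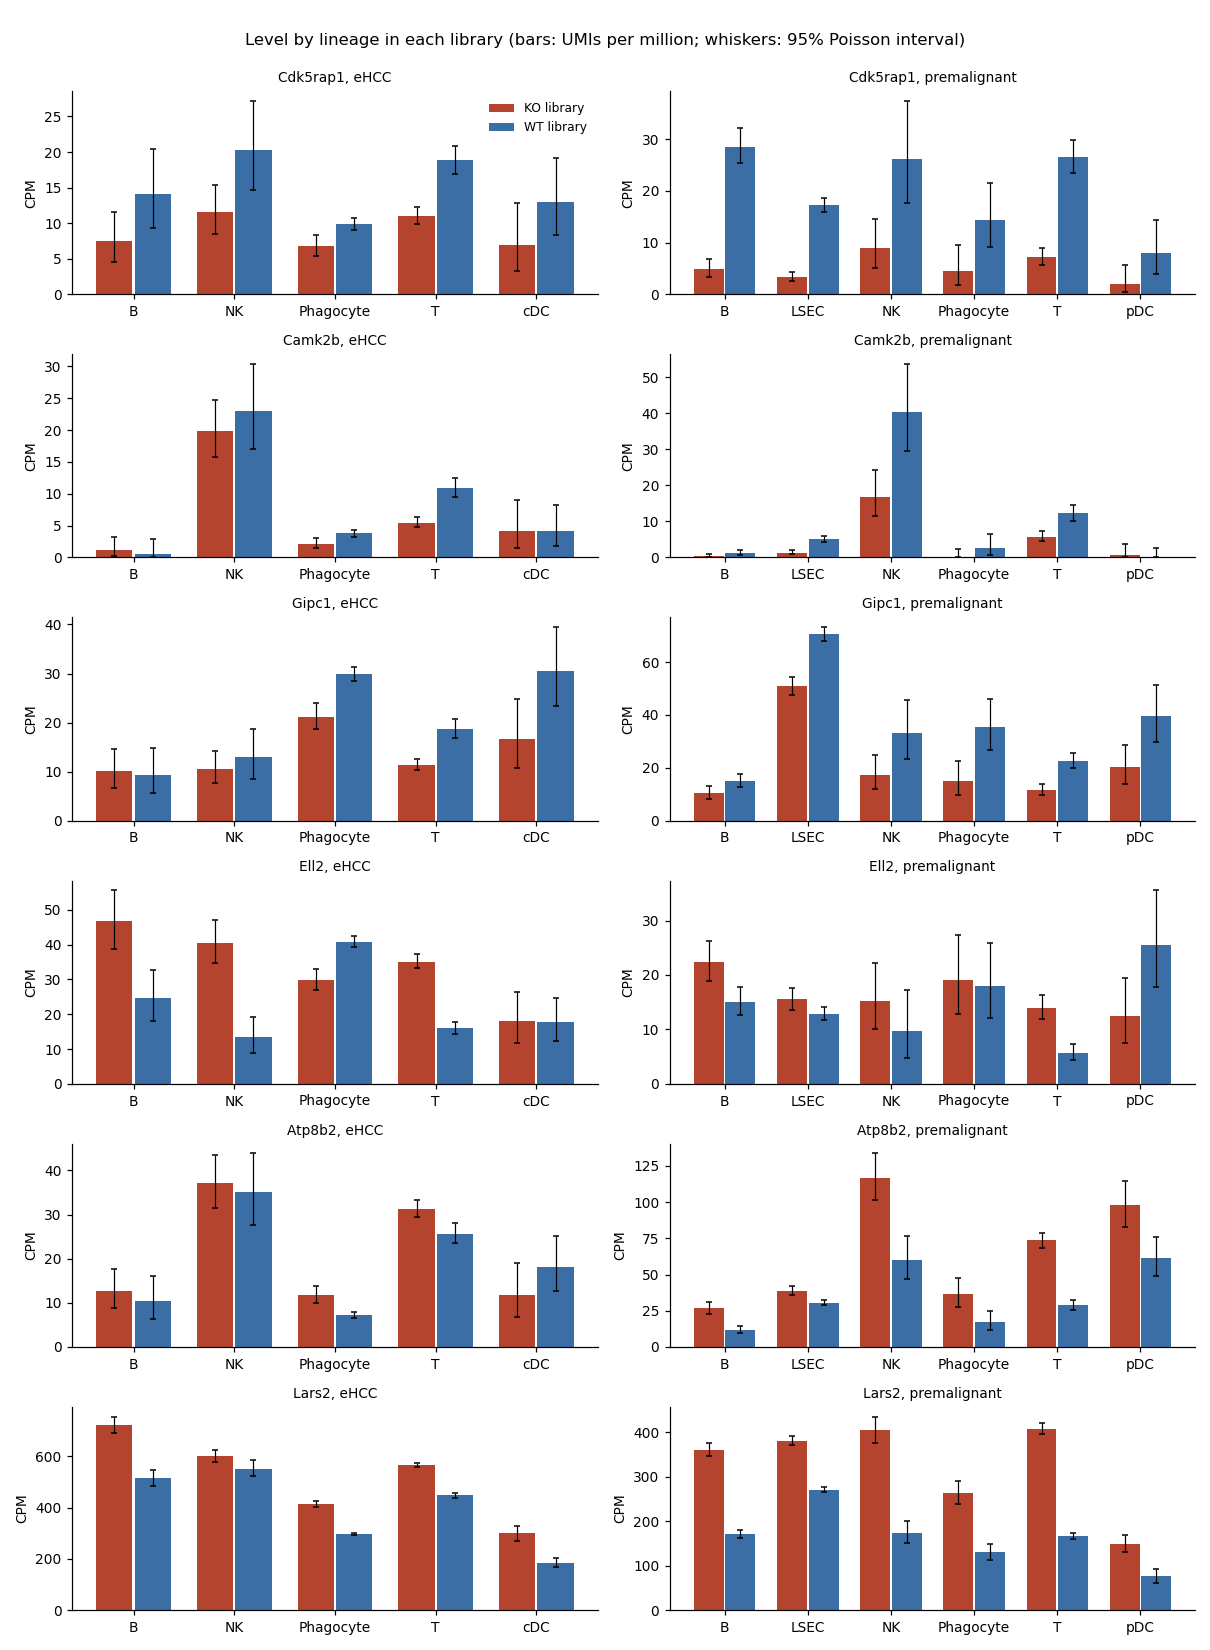
CPM of each gene (rows) in the large lineages of eHCC (left column) and premalignant liver (right column), KO library beside WT library, with 95% Poisson intervals as whiskers. Cdk5rap1 bars of KO are the shorter in every lineage, and the Gipc1 bars are tallest in premalignant LSEC-like cells.

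Cdk5rap1 lies on chr2:154335380-154373010, minus strand (GENCODE vM21 on GRCm38, which is mm10), and shares no exon with another annotated gene. Because the libraries differ by the label of a MEF2 gene, the sequence around its RefSeq start was searched for a loose form of the MEF2 element (CTA, 4 bases of any kind, then TAG), a pattern that reads the same on both strands. Of the 6 genes, 5 had an entry in RefSeq's promoter set (Gipc1 was not among them), and the Cdk5rap1 window alone held this pattern, as CTACCATTAG with its first base at -101 from the start. The pattern is in 1211 of 32851 promoter windows of 300 bases (3.69%). Its middle bases here are not all A or T, and with A or T asked for at each of the 4, 0 of the 5 genes and 0.557% of windows held it. A match is a description of letters, not a bound site. The RefSeq start, from which -101 is counted, lies downstream of the GENCODE start. The bases shown therefore fall inside the GENCODE gene and are not upstream of every annotated start. The 250 bases before the RefSeq start, chr2:154372720-154372969 on the minus strand (GRCm38.p6), read 5′ to 3′ with the matched letters in capitals as
Cdk5rap1: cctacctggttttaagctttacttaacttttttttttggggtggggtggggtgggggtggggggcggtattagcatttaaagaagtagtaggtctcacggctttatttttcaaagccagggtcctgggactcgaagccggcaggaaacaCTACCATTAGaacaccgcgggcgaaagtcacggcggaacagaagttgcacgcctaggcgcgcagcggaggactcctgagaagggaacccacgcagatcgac

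Among the large lineages Camk2b was highest in NK-like cells in all 4 libraries, and the KO library was lower in each of the 6 comparisons that could be counted. Some smaller classes had levels above those of T-like cells on few UMIs, as hepatocyte-like cells at eHCC (14.7 CPM in KO and 12.3 CPM in WT, 5 and 13 UMIs) and cholangiocyte-like cells at the premalignant stage (9.26 and 14.2 CPM, 13 and 8 UMIs). At eHCC NK-like cells had 19.9 CPM in KO and 23.0 CPM in WT (81 and 50 UMIs), log2 -0.21 with an interval that holds 0 (-0.74 to 0.33). T-like cells had 5.48 CPM in KO and 10.9 CPM in WT (-0.99, -1.28 to -0.70) and phagocyte-like cells 2.15 and 3.77 CPM (-0.81, -1.45 to -0.23). So T-like and phagocyte-like cells were past 1.5-fold and NK-like cells were not.

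Camk2b in premalignant liver was at 16.9 CPM in KO and 40.2 CPM in WT NK-like cells (30 and 46 UMIs, -1.25, -1.97 to -0.56), at 5.77 and 12.2 CPM in T-like cells (-1.08, -1.54 to -0.64) and at 1.37 and 5.05 CPM in LSEC-like cells (-1.88, -2.59 to -1.24). B-like, phagocyte-like and pDC-like cells had too few UMIs there, as had B-like and cDC-like cells at eHCC. In the Efnb1-led cluster of LSEC-like cells the gene had 0 UMIs in KO, which allows up to 2.17 CPM, and 35 UMIs in WT (5.21 CPM), at least 2.40-fold lower in KO with a floor of 3 UMIs and the WT count taken as fixed. The exact interval of the ratio, which lets both counts vary, reaches up to log2 -0.89. Over all kept cells the log2 ratio was -0.36 (4.67 CPM in KO, 6.01 CPM in WT) at eHCC and -0.96 (3.03 and 5.89 CPM) at the premalignant stage. All 5 eHCC clusters with enough UMIs were past 1.5-fold lower in KO (-1.56 to -0.88), a larger difference than over all kept cells. The intervals of the phagocyte-like ones, Ms4a4c-led (-2.11 to 0.51) and Mmp12-led (-2.95 to 0.02), hold 0.

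Gipc1 was lower in KO in 10 of 11 lineage comparisons, with the B-like cells of eHCC as the exception. At eHCC it was at 16.7 CPM in KO and 30.6 CPM in WT cDC-like cells (-0.87, -1.62 to -0.17), 11.3 and 18.7 CPM in T-like cells (-0.72, -0.93 to -0.51) and 21.2 and 29.96 CPM in phagocyte-like cells (-0.50, -0.69 to -0.31). NK-like cells, at 10.6 CPM in KO and 12.9 CPM in WT, and B-like cells, at 10.1 and 9.39 CPM (log2 0.10), had intervals that hold 0. Over all kept cells the 2 stages gave nearly equal log2 ratios, -0.90 (14.3 CPM in KO, 26.8 CPM in WT) at eHCC and -0.86 (26.9 and 49.1 CPM) at the premalignant stage. Of the 5 eHCC lineages 2 were past 1.5-fold, although the value over all kept cells was.

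In premalignant liver Gipc1 was highest in LSEC-like cells, at 50.9 CPM in KO and 70.5 CPM in WT (817 and 2750 UMIs, log2 -0.47, -0.59 to -0.36). The other premalignant lineages were lower in KO as well: phagocyte-like cells at 15.1 and 35.4 CPM (-1.23), T-like cells at 11.5 and 22.6 CPM (-0.97, -1.29 to -0.65), pDC-like cells at 20.2 and 39.4 CPM (-0.96), NK-like cells at 17.4 and 33.2 CPM (-0.93) and B-like cells at 10.5 and 15.2 CPM (-0.53, -0.96 to -0.11). All 6 lineages were thus below 0, 4 of them past 1.5-fold. Within clusters that both libraries filled, Gipc1 was lower in KO in 6 of 8 at eHCC (log2 -0.99 to 0.15) and in 13 of 13 at the premalignant stage (-1.21 to -0.20). At eHCC only the interval of a Hist1h1b-led T-like cluster excludes 0 (-1.08 to -0.17). At the premalignant stage those of the Gm26870-led, Tcrg-C2-led and Ncr1-led clusters hold 0.

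Ell2 was higher in KO lymphocyte lineages and was not higher in all others. At eHCC it stood at 40.5 CPM in KO and 13.4 CPM in WT NK-like cells (165 and 29 UMIs, log2 1.60, 1.03 to 2.22), at 35.1 and 16.0 CPM in T-like cells (1.13, 0.95 to 1.31) and at 46.7 and 24.5 CPM in B-like cells (0.93, 0.43 to 1.44). In phagocyte-like cells the direction turned, with 29.9 CPM in KO and 40.9 CPM in WT (375 and 2297 UMIs, -0.45, -0.61 to -0.29), and in cDC-like cells the levels were 18.1 and 17.6 CPM (0.04, -0.76 to 0.82). Over all kept cells the levels were 33.0 CPM in KO and 32.4 CPM in WT (0.03, -0.05 to 0.10).

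Premalignant Ell2 was at 14.0 CPM in KO and 5.74 CPM in WT T-like cells (155 and 61 UMIs, 1.28, 0.85 to 1.74), where 1 KO cell held 10.3% of the UMIs. B-like cells had 22.4 and 15.1 CPM (0.57, 0.23 to 0.91), LSEC-like cells 15.5 and 12.8 CPM (0.27, 0.05 to 0.49), and NK-like cells 15.2 and 9.61 CPM with an interval from -0.40 to 1.82. In pDC-like cells Ell2 was lower in KO, at 12.4 and 25.6 CPM (19 and 35 UMIs, -1.04, -1.93 to -0.20), and phagocyte-like cells had 19.0 and 18.0 CPM. The highest levels were in smaller classes: 152 CPM in 38 KO and 84.6 CPM in 39 WT premalignant plasma-like cells, and 131 CPM in 56 KO and 107 CPM in 705 WT eHCC neutrophil-like cells.

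Ell2 was also read in clusters with cells of both libraries. Among eHCC T-like clusters Ell2 was at log2 2.51 (53 KO and 8 WT UMIs) in a Klra9-led cluster, 1.46 in one led by Tnfsf8 and holding Foxp3 among its leading genes, 0.77 in an interferon-response cluster led by Ifit3 and 0.21 in a cycling cluster. The interval of the cycling cluster holds 0 (-0.39 to 0.83). Among phagocyte-like clusters Ell2 was at -0.13 (-0.53 to 0.29) in the Ms4a4c-led one and 0.59 (0.07 to 1.11) in a Mmp12-led one. In a Ccl8-led one it was at 0.63 (-0.51 to 1.81). Of these 3 clusters only the Mmp12-led one has an interval that excludes 0, on the higher side, so counting does not settle the sign in the others. The lower KO level of phagocyte-like cells as a class (-0.45) was thus not settled within any of them.

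**Figure D3:**
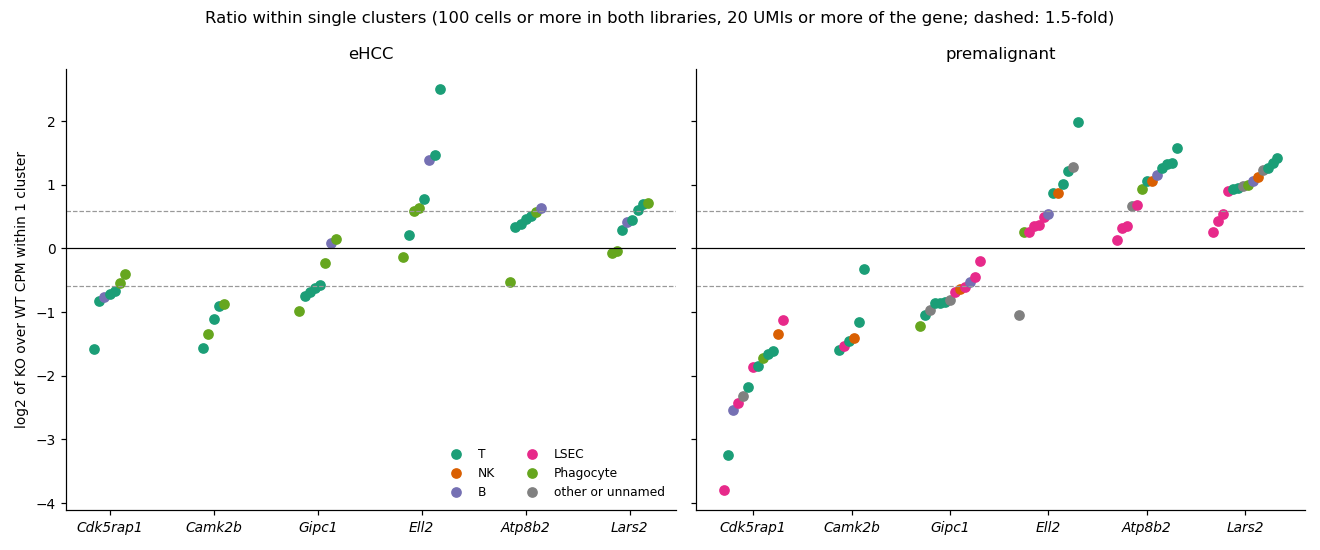
Log2 ratio of KO over WT CPM within each cluster that has at least 100 cells in both libraries and 20 UMIs of the gene, coloured by class, eHCC left and premalignant right; dashed lines mark 1.5-fold. A cluster with 0 KO UMIs of Camk2b is not drawn, and neither are counting intervals, several of which hold 0. Cdk5rap1 and Camk2b points all lie below 0, and at eHCC 7 of 8 Ell2 points lie above it.

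Ell2 lies on chr13:75706757-75772364, plus strand. The only exons it shares are 94 bases with the antisense gene 1700037F03Rik, which had at most 1 UMI in a library, and 130 bases with a snoRNA. Its RefSeq window held the cAMP response element TGACGTCA, which is in 588 of 32851 windows (1.79%), with its first base at -198 from the RefSeq start. That start lies downstream of the GENCODE start, so the element falls inside the GENCODE gene. No window of the genes held the AP-1 letters TGANTCA, found in 7.81% of windows. The 30 bases around the element at chr13:75707275-75707304 on the plus strand (RefSeq, GRCm38.p6) are shown with the element in capitals as
Ell2: aagacgagacaTGACGTCAgataagattaa

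Atp8b2 was higher in KO in 4 of 5 eHCC lineages, by less than 1.5-fold in 3 of these, and in all 6 premalignant lineages. At eHCC phagocyte-like cells had 11.7 CPM of Atp8b2 in KO and 7.24 CPM in WT (147 and 407 UMIs, 0.69, 0.41 to 0.97) and T-like cells 31.3 and 25.7 CPM (0.28, 0.13 to 0.44). NK-like cells (37.1 and 35.0 CPM), B-like cells (12.7 and 10.4 CPM) and cDC-like cells (11.8 and 18.1 CPM, log2 -0.62, -1.55 to 0.26) had intervals that hold 0. The value over all kept cells, 22.7 CPM in KO and 14.1 CPM in WT (0.69), was as large as that of the highest lineage.

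The premalignant ratios of Atp8b2 were larger. T-like cells had 73.6 CPM in KO and 28.9 CPM in WT (816 and 307 UMIs, log2 1.35, 1.16 to 1.54), B-like cells 26.8 and 11.9 CPM (1.18, 0.83 to 1.53), phagocyte-like cells 36.8 and 17.4 CPM (1.08, 0.40 to 1.79) and NK-like cells 116 and 60.3 CPM (0.95, 0.55 to 1.36). pDC-like cells had 97.8 and 61.3 CPM (0.67) and LSEC-like cells 39.0 and 30.5 CPM (0.35, 0.21 to 0.49). NK-like and pDC-like cells held the highest levels in both premalignant libraries, with overlapping intervals. Within clusters Atp8b2 was higher in KO in 6 of 7 at eHCC (-0.53 to 0.64) and in 13 of 13 at the premalignant stage (0.13 to 1.57). The interval of each of these eHCC clusters holds 0, so counting does not settle their signs. At the premalignant stage only those of the Gm26870-led and Efnb1-led LSEC-like clusters hold it.

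Atp8b2 lies on chr3:89939481-89963508, minus strand, 1.77 Mb from Mef2d at chr3:88142372-88172086, with 107 RefSeq genes between them. Of those measured, 5 of 55 were higher and 13 lower in KO past 1.5-fold at eHCC (median log2 -0.13), where 16.1% of all genes were higher and 27.4% lower. At the premalignant stage 16 of 58 were higher and 0 lower (median 0.20), against 17.4% and 6.32% of all genes. Its 10 measured neighbours at eHCC (median -0.12) and 11 at the premalignant stage (median 0.17), out of the 20 nearest genes, had medians below its ratios of 0.69 and 0.88. At eHCC 0 of the 10 were past 1.5-fold higher, and at the premalignant stage 2 of the 11 were, Il6ra (0.75) and Kcnn3 (2.95, on 44 and 9 UMIs), named after their values were seen. Neighbours of Cdk5rap1 had medians of -1.02 (3 measured) at eHCC and -0.42 (3) at the premalignant stage. Those of Ell2 had 0.41 (3) and 1.02 (2), so both rest on few genes. Those of Camk2b had -0.13 (11) and 0.02 (13), of Gipc1 -0.06 (7) and 0.01 (7), and of Lars2 -0.13 (10) and 0.11 (11).

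Lars2 had by far the most UMIs of the 6 and was higher in KO in all 11 lineage comparisons. At eHCC it stood at 299 CPM in KO and 185 CPM in WT cDC-like cells (0.69, 0.49 to 0.90), 722 and 514 CPM in B-like cells (0.49), 415 and 297 CPM in phagocyte-like cells (0.48), 566 and 448 CPM in T-like cells (0.34) and 600.1 and 552 CPM in NK-like cells (0.12, 0.02 to 0.22). At the premalignant stage it stood at 408 CPM in KO and 167 CPM in WT T-like cells (log2 1.29, 1.21 to 1.37), 404 and 174 CPM in NK-like cells (1.22), 360.3 and 171 CPM in B-like cells (1.08), 263 and 130 CPM in phagocyte-like cells (1.02), 149 and 76.0 CPM in pDC-like cells (0.98) and 381 and 271 CPM in LSEC-like cells (0.49, 0.45 to 0.54). Past 1.5-fold were 1 of 5 eHCC and 5 of 6 premalignant lineages. Within clusters that both libraries filled, Lars2 was higher in KO in 14 of 14 at the premalignant stage (0.26 to 1.42) and in 6 of 8 at eHCC (-0.07 to 0.72). The other 2 were phagocyte-like: the Ms4a4c-led cluster had 374 CPM in KO and 386 CPM in WT (3549 and 760 UMIs, log2 -0.045, -0.16 to 0.07) and the Mmp12-led one 345 and 362 CPM (-0.068, -0.20 to 0.07). So the ratio of 0.48 over all eHCC phagocyte-like cells was not seen in these 2 clusters, while the Ccl8-led one stood at 0.72. The low-UMI barcodes with hepatocyte RNA, which no lineage name fits, were higher in KO too (345 and 146 CPM, 1.24).

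Lars2 moved with Gm42418, a long non-coding RNA gene on chromosome 17 whose row is known to take reads of ribosomal RNA. Over the 12 comparisons of a lineage or of the low-UMI barcodes at a stage, the log2 ratios of the 2 genes had Pearson's r of 0.96 and Spearman's rho of 0.87, a description of points that share libraries and totals. Lars2 minus Gm42418 ran from -0.43 (premalignant pDC-like cells) to 0.16 (eHCC B-like cells), with a median of -0.06. AY036118, an annotated gene on the opposite strand at the same locus, did not run along (r of -0.35). Lars2 had been listed beforehand, with Gm42418, AY036118 and Gm26917, among the rows that can take ribosomal RNA reads. Over all kept cells Gm26917 was higher in KO (log2 0.85 at eHCC, 0.49 at the premalignant stage), and AY036118 was at 0.04 and -0.08. Gm42418 itself was at 11496 CPM in KO and 8360.0 CPM in WT over all kept eHCC cells and at 4518 and 2517 CPM over premalignant cells.

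Counted per 1000 Gm42418 UMIs, Lars2 differed less between genotype labels than in CPM. T-like cells had 43.7 Lars2 UMIs per 1000 in KO and 39.9 in WT at eHCC, and 77.9 in KO and 83.8 in WT at the premalignant stage. Inside each library, T-like cells were split into 4 groups of equal size by their Gm42418 share, and the highest group was set against the lowest. Here CPM leaves Lars2 and Gm42418 out of the total, for the Gm42418 share as for the Lars2 level. Lars2 was 953 against 340.3 CPM in KO eHCC and 774 against 276 CPM in WT eHCC cells. It was 622 against 288 CPM in KO premalignant and 260.3 against 121 CPM in WT premalignant cells. The median UMIs per cell were lower in the highest group in each. Share and level were divided by the same total, which can itself make Lars2 rise with the share. How much of the rise came from this or from depth was not tested. The part of Gm42418 in the Lars2 ratios was not tested.

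**Figure D4:**
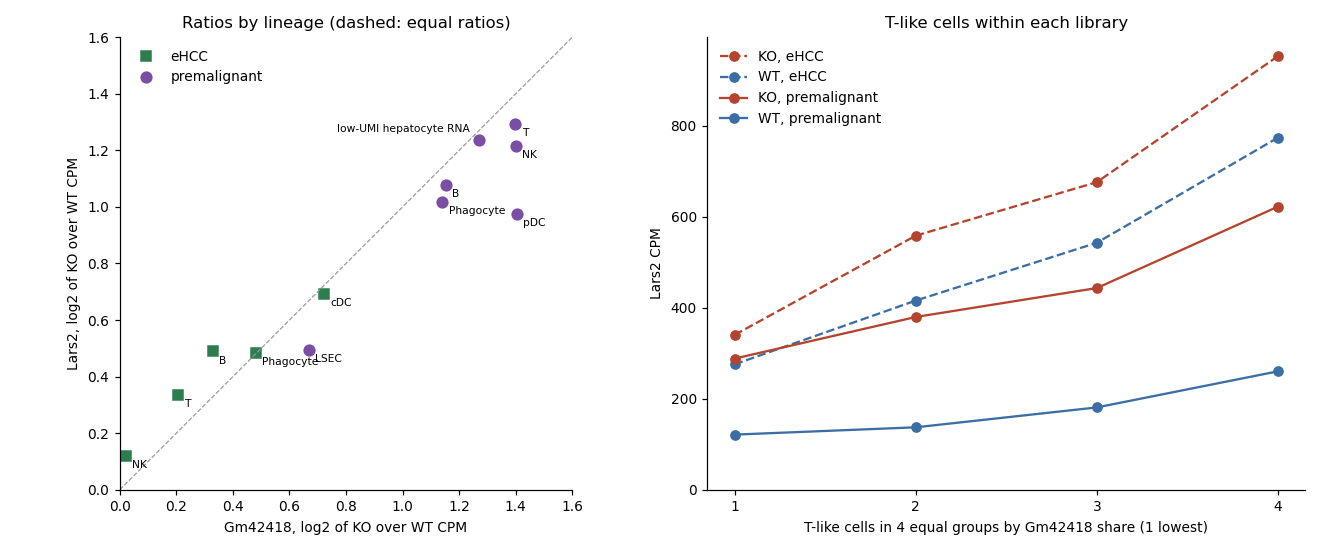
Left, log2 ratio of KO over WT CPM of Lars2 (vertical) against that of Gm42418 (horizontal) in each large lineage and the low-UMI barcodes, with the line of equal ratios dashed. Right, Lars2 CPM, with Lars2 and Gm42418 left out of the total, in T-like cells of each library split into 4 groups by their Gm42418 share. The line of each library climbs from group 1 to group 4, to 953 CPM in the KO eHCC library. Share and level were divided by the same total.

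Lars2 lies on chr9:123366927-123462666, plus strand. Its transcript Lars2-201 (3894 bases) shares no run of 12 or more bases with Gm42418 or AY036118, and shares a run of 52 bases in its 3′ part (bases 3278 to 3329) with Gm15564, a gene with at most 4 UMIs in a library. Where in the transcripts the counted tags lie is not settled by the files. The 250 bases before its RefSeq start are shown because Lars2 was higher in every lineage. They held none of the motifs searched and are chr9:123366677-123366926 on the plus strand (GRCm38.p6), all in lower case as
Lars2: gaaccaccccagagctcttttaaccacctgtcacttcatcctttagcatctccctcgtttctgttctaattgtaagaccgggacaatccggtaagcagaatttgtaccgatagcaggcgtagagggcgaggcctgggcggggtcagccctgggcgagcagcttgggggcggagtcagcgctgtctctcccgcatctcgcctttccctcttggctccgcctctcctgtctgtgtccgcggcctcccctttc

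Whole-library ratios also carried the make-up of the libraries. At eHCC T-like cells gave 44.3% of KO and 20.1% of WT UMIs, and phagocyte-like cells 16.7% of KO and 56.2% of WT UMIs. When the levels of the large lineages in both libraries were weighted by the lineage shares of the WT library, the eHCC log2 ratio was -0.78 for Camk2b, against -0.10 with each library's own shares, and 0.42 for Atp8b2, against 1.01. It was -0.66 for Cdk5rap1, against -0.36, and -0.54 for Gipc1, against -0.95. At the premalignant stage LSEC-like cells gave 34.3% of KO and 52.6% of WT UMIs, and Gipc1, whose highest level lies in them, was at -0.53 with equal shares, against -0.87. With equal shares at eHCC, Cdk5rap1 and Camk2b were thus past 1.5-fold, and Gipc1 and Atp8b2 were not.

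**Figure D5:**
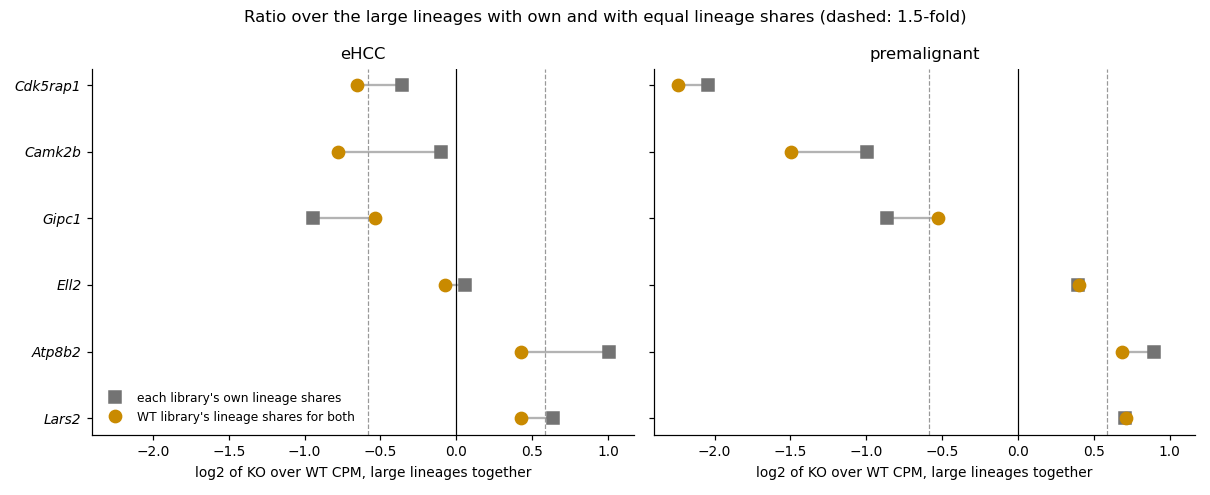
Log2 ratio of KO over WT CPM over the large lineages together, with each library's own lineage shares (squares) and with the WT library's UMI shares applied to both (circles), eHCC left and premalignant right; dashed lines mark 1.5-fold. The eHCC ratio of Camk2b lies at -0.10 with own shares and at -0.78 with equal shares, and that of Atp8b2 at 1.01 and 0.42.

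Between stages, the eHCC over premalignant log2 ratios over all kept cells were of the same sign in both genotype labels for Atp8b2 (-1.09 in KO, -0.89 in WT), Gipc1 (-0.91 and -0.87), Ell2 (0.73 and 1.26) and Lars2 (0.58 and 0.75). Cdk5rap1 had opposite signs, and Camk2b was at 0.62 in KO (0.34 to 0.91) and 0.03 in WT (-0.15 to 0.21). Values over all kept cells carry the lineage shares: LSEC-like cells numbered 2954 in KO and 5450 in WT at the premalignant stage and 13 and 56 at eHCC. In T-like cells, present at both stages, Ell2 was 2.51-fold and 2.80-fold higher at eHCC in KO and WT. There Gipc1 was at -0.02 in KO (-0.32 to 0.28) and -0.27 in WT (-0.51 to -0.03). Atp8b2 was at -1.23 in KO (-1.37 to -1.10) and -0.17 in WT (-0.37 to 0.04) in these cells.

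Genes at least 1.5-fold to the same side in all 11 comparisons were few, and none of the genes followed here was among them. Of the 6651 genes with at least 20 UMIs in every large lineage at both stages, 4 were at least 1.5-fold lower in KO in all 11 comparisons (0.0601%) and 0 were higher (0%). Those 4 were Gm42031 (smallest log2 ratio -2.22, median -3.23), the complement genes C1qa (-1.45, -3.01) and C1qb (-1.41, -2.93), which macrophages make, and the histone gene Hist1h2bc (-0.61, -1.14). Cdk5rap1 was past 1.5-fold in 9 of the 10 comparisons that had at least 20 UMIs and at -0.55 in the other, eHCC phagocyte-like cells, and was outside the 6651 because of its few UMIs in pDC-like cells. At 1 stage alone, 0.99% of 7169 genes were lower and 0.837% higher in every eHCC lineage, and 0.0688% of 7268 genes were lower and 0.11% higher in every premalignant lineage. With no size required, 2.35% of genes were lower and 2.81% higher in all 11 comparisons, and Lars2 is among those higher.

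The pathway lists around each gene are set beside the genes measured at both stages, whose median over all kept cells was at -0.11 at eHCC and 0.05 at the premalignant stage, and of which 3.02% were past 1.5-fold lower and 5% higher at both. Of 16 mitochondrial tRNA synthetase genes other than Lars2, 0 were past 1.5-fold in 1 direction at both stages, with medians of -0.24 and 0.01. The same held for 17 genes of mitochondrial tRNA modification other than Cdk5rap1 (-0.11 and -0.05). Lars2 (0.51 and 0.68) and Cdk5rap1 (-0.53 and -1.98) were not past 1.5-fold at both stages either, so these counts do not set the lists apart from them. Among 12 kinase and calmodulin genes, Camk1 was lower at both stages (-2.37 and -0.60) and Camk4, a kinase of T cells, higher (1.36 and 1.23). Of 11 genes of GIPC adaptors, myosin VI and bound receptors, the endothelial receptor Eng was lower beside Gipc1 (-1.32 and -0.62), with list medians without Gipc1 of -0.91 and -0.30.

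In the super elongation complex, 8 of 12 genes other than Ell2 were above 0 at eHCC and 12 of 12 at the premalignant stage, where 42.8% and 55.4% of all genes were, with medians of 0.24 at each. Mllt3, a chromatin reader of that complex, was the 1 past 1.5-fold at both (47.3 CPM in KO and 24.1 CPM in WT at eHCC, 37.3 and 22.0 CPM at the premalignant stage). For flippases and their CDC50 subunits, 12 genes other than Atp8b2 were measured, with medians of -0.37 and 0.32. Of these only the flippases Atp8a2 (1.18 and 1.21) and Atp10a (1.19 and 0.80) were higher past 1.5-fold at both stages, as 5% of all genes were. These list values are over all kept cells and carry the lineage shares given above.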

How the data were processed

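Each library was made from digested mouse liver with 10x Genomics 5' chemistry, per the labels. The deposited files hold raw UMI counts of 31053 genes for each barcode; their headers name Cell Ranger 3.0.1 as the program the authors ran. The submitters' processing notes name bcl2fastq 2.20.0 and the builds GRCh38 and mm10 without roles. Total UMIs per library were 93920711 (KO eHCC), 118594527 (WT eHCC), 56458438 (KO premalignant) and 96593761 (WT premalignant).

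Barcodes with fewer than 500 UMIs, fewer than 300 genes or over 25% mitochondrial UMIs were dropped. Doublets were scored per library by the share of simulated doublets among neighbours, and the top 0.8% per 1000 cells were removed (625, 831, 719 and 1497 cells in the same order). The 4 libraries were clustered together without the 6 genes, mitochondrial and sex-linked genes or antigen receptor segments, on 2000 variable genes, 40 components and 15 neighbours, with Leiden at resolution 1 (python 3.11.15, scikit-learn 1.9.0, leidenalg 0.10.2). Names came from 16 marker lists, scored with 5 CPM added to each level, and asked for at least 3 markers found in 10% of cells; these thresholds were set after the clusters had been seen, and 7 clusters stayed unnamed. Shares and levels by lineage depend on these rebuilt names.

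UMIs were summed per lineage and library and divided by the total (CPM). The log2 ratio of KO over WT has an exact conditional binomial 95% interval and a level an exact Poisson one; both cover counting error only. Ratios were read where both libraries together had 20 UMIs or more, and a count of 0 was given a floor of 3 UMIs. The intervals were checked on simulated counts. No test between groups was run, because each group is 1 library.

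The 6 genes, the pathway lists and the markers were chosen with earlier results of these data known. Genes outside the 6 are named where they were past 1.5-fold in 1 direction in every large lineage at both stages, or, within a pathway list, over all kept cells at both stages (at most 3 a list). Gm42418, AY036118, Gm26917 and Gm15564 are named as rows beside Lars2. Mef2d, Xist and Ddx3y are named as checks of the libraries. Promoter windows (250 bases before to 50 after a start) are RefSeq's for GRCm38.p6. Alternatives tried were other filters, doublets kept, other lineage definitions, other UMI and fold minimums, thinning to 1000 UMIs per cell, equal weight per cell, centring on the median gene and leaving genes out of the total.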

Additional observations from a re-analysis of the deposited data

Results flagged for a closer look

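Ell2 had lineages on opposite sides of 0 with intervals that exclude it; the difference between lineages was not tested. At eHCC the log2 ratio of KO over WT was 0.93 in B-like, 1.60 in NK-like and 1.13 in T-like cells, and -0.45 in phagocyte-like cells. Within the phagocyte-like clusters that both libraries filled it was -0.13 (-0.53 to 0.29), 0.59 (0.07 to 1.11) and 0.63 (-0.51 to 1.81), so none had a settled lower level. At the premalignant stage it was 0.57 in B-like, 0.27 in LSEC-like and 1.28 in T-like cells, and -1.04 in pDC-like cells.

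Lars2 also gave a signal in barcodes that the cell filters removed, which no comparison uses. Its level there was 474 CPM in KO and 2578 CPM in WT at eHCC and 278 CPM in KO and 975 CPM in WT at the premalignant stage, so among these barcodes the WT library was the higher, the reverse of the kept cells.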

How the results depend on the processing

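No ratio that was past 1.5-fold over all kept cells changed sign under the alternatives; 72 of the recomputed log2 ratios moved by less than their counting interval and 38 by more, and 76 of the recomputed lineage counts were within 1.5 times the one reported and 22 were not. Leaving out a library was not run, since each group has 1. No paired analysis was possible because each group has 1 library. The cause of each shift was not tested.

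Thinned to 1000 UMIs per cell, the eHCC log2 ratios were -0.86 (Cdk5rap1), -1.04 (Gipc1), 0.29 (Ell2) and 0.39 (Lars2), and the premalignant ones -2.32 (Cdk5rap1), -0.69 (Gipc1) and 1.09 (Atp8b2). With each cell weighted equally they were -0.68 (Cdk5rap1), -0.77 (Gipc1), 0.35 (Ell2), 0.51 (Atp8b2) and 0.43 (Lars2) at eHCC and -0.76 (Gipc1) and 1.03 (Atp8b2) at the premalignant stage. With the lineage shares of WT for both libraries, an alternative chosen after seeing the data, they were -0.78 (Camk2b), -0.54 (Gipc1), -0.071 (Ell2), 0.42 (Atp8b2) and 0.43 (Lars2) at eHCC and -2.24 (Cdk5rap1), -1.49 (Camk2b), -0.53 (Gipc1), 0.40 (Ell2), 0.69 (Atp8b2) and 0.71 (Lars2) at the premalignant stage. Over all deposited barcodes they were -1.02 (Gipc1), -0.068 (Ell2), 0.52 (Atp8b2) and 0.35 (Lars2) at eHCC and 0.60 (Lars2) at the premalignant stage. With the median gene at 0 they were -0.80 (Gipc1), 0.13 (Ell2), 0.80 (Atp8b2) and 0.61 (Lars2) at eHCC and 0.62 (Lars2) at the premalignant stage. Lars2 was at 0.54 (eHCC) and 0.75 (premalignant) with at most 10% mitochondrial UMIs and at 0.56 at eHCC with haemoglobin genes out of the total, also chosen after seeing the data.

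The count of lineages past the fold, at a minimum of 2-fold, was 0 for Cdk5rap1, Camk2b, Gipc1, Atp8b2 and Lars2 at eHCC, and at the premalignant stage 1 for Gipc1, 1 for Ell2 and 3 for Atp8b2. Thinned, with fewer lineages above the UMI minimum, it was 2 of 2 for Cdk5rap1, 1 of 1 for Camk2b, 1 of 2 for Gipc1, 0 of 3 for Atp8b2 and 2 of 5 for Lars2 at eHCC, and 3 of 3 for Cdk5rap1, 2 of 3 for Gipc1 and 1 of 3 for Ell2 at the premalignant stage. At eHCC it was 0 of 4 for Gipc1 and 0 of 4 for Lars2 with each library clustered alone, 1 of 4 for Gipc1, 0 of 4 for Atp8b2 and 0 of 4 for Lars2 with lineages set by marker UMIs, and 2 of 5 for Lars2 with the median gene at 0. Genes lower in all lineages at both stages numbered 0 of 4435 with at least 50 UMIs, 2 of 7097 with doublets kept and 2 of 7115 with lineages set by marker UMIs, where 1 gene was higher.

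With the 2 clusters of T cell genes added to the T-like class, also chosen after seeing the data, the eHCC log2 ratio was -0.83 for Cdk5rap1, -0.97 for Camk2b, -0.63 for Gipc1, 1.40 for Ell2, 0.25 for Atp8b2 and 0.38 for Lars2. Depth limits Cdk5rap1 and Camk2b most: of 11 lineage comparisons 10 and 6 had 20 UMIs.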

Other observations

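Within a lineage of a library, CPM of most of the 6 genes differed with the depth of the cell. With the cells in 3 groups of equal size by UMIs, the deepest against the shallowest, the median log2 difference was -0.29 for Cdk5rap1, -0.86 for Camk2b, -0.44 for Ell2, -0.43 for Atp8b2 and -0.61 for Lars2, and 0.43 for Gipc1, over the 7 to 15 lineages of a library with at least 300 cells and 60 UMIs of the gene. The Gipc1 difference was above 0 in all 10 of its lineages at that minimum (0.13 to 0.88) and in 11 of 14 with at least 20 UMIs (-0.63 to 0.93). The Camk2b difference was below 0 in all 7 (-1.11 to -0.36) and in 10 of 11 with at least 20 UMIs (-1.82 to 0.72).

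Endothelial cells outside the LSEC-like class carried much Gipc1 at eHCC, 72.4 CPM in 52 KO cells and 99.3 CPM in 137 WT cells, above every large lineage of that stage. In the same cells Lars2 stood at 886 CPM in KO and 566 CPM in WT, and Atp8b2 at 29.4 and 46.1 CPM.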
